A study of Mus musculus with 58 samples.

Results

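Broad PSPC1 domains are stretches of at least 5000 bp of the mouse genome, joined from overlapping peaks of 2 libraries of mouse embryonic stem cells. In both libraries PSPC1 on chromatin was tagged at its own gene. A domain need not be covered over its whole width in both. A domain is a knock-in site, made from a peak of replicate 1 that shared at least 1 bp with a peak of replicate 2 and merged with those peaks, whose end minus start reached 5000 bp. Of 10352 knock-in sites, 962 met this width (9.29%), and they held 8.25 Mb, or 26.9% of the bases of all knock-in sites. The domains were chosen by their width and by the peaks of both knock-in libraries, so every knock-in value below is a description and carries no test. The comparison is with the remaining 9390 knock-in sites, whose median width was 2199 bp.

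The study concerns RNA-binding proteins on chromatin and the binding of RNA polymerase II. Of its 58 samples, 9 chromatin immunoprecipitation sequencing (ChIP-seq) libraries with a peak list were used, and the other 49 were not analysed here. All 9 were mouse embryonic stem cells labelled 129/Ola, and 5 µg of FLAG antibody was used for each. The 2 knock-in libraries came from AID-FB(KI)-PSPC1 cells, in which PSPC1 carries an auxin-inducible degron (AID) beside its tag, built from the line CJ9, with no treatment in their labels and 3% formaldehyde fixation. Overexpressed PSPC1, labelled FB(OE)-PSPC1, came from J1 cells that carry the biotin ligase BirA and was fixed with 1% formaldehyde. CIRH1A, UTP3 and UTP6 were overexpressed in the same J1 background and fixed with 3% formaldehyde. Overexpressed hnRNPU, SAFB and SAFB2 were fixed with 2 mM of the protein crosslinker DSP plus 1% formaldehyde and purified again on streptavidin. Each overexpressed protein had 1 library, so no difference that involves one has a replicate check, and fixation cannot be told apart from the protein. No list from untagged cells was used. Whether the knock-in libraries came from separate cultures is not given in the sources used here.

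PSPC1 belongs, with NONO and SFPQ, to a family of nuclear proteins that bind both RNA and DNA and form dimers with each other. It is a component of paraspeckles, nuclear bodies built on the long noncoding RNA Neat1. hnRNPU, SAFB and SAFB2 are RNA-binding proteins of the nuclear matrix, while UTP6, UTP3 and CIRH1A act in the nucleolus, where ribosomal RNA is made and processed.

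The domains ran from 5003 to 78909 bp, with a median of 6754 bp and quartiles of 5688 and 9365 bp. At least 7500 bp was reached by 397 domains, 10000 bp by 213, 20000 bp by 32 and 30000 bp by 7. The lists differed in their wide peaks. Peaks of at least 10000 bp numbered 160 in knock-in replicate 1 and 153 in replicate 2, and the 7 lists of overexpressed proteins held 0. Overexpressed PSPC1 had 2 peaks of at least 5000 bp among 22785. The SAFB list had 414, or 3.89% of its peaks, a share like the 3.77% and 2.83% of the knock-in lists. Of these 414, 7 lay at a domain (1.69%), against 0.677% of all SAFB peaks. The UTP6 list had 70 wide peaks, of which 26 lay at a domain (37.1%), against 2.30% of all its peaks. At any knock-in site, domains included, lay 40 of the 70 (57.1%). A wide peak has more bases with which to meet a domain, and these shares are not corrected for peak width.

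The width of a domain was in part a product of merging. A single peak of at least 5000 bp stood at 482 domains in both libraries, at 179 in replicate 1 alone, at 116 in replicate 2 alone and at 185 in neither. Exactly 1 peak of each library made up 529 domains. The most peaks in a domain were 4 of replicate 1 and 6 of replicate 2. The median share of a domain's bases covered in both libraries was 82.7%, with a range from 0.435 to 99.5%. Over the 962 domains, which share both libraries, the longest peak of replicate 1 followed that of replicate 2 with a Spearman rho of 0.687, and the scores with a rho of 0.954.

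The score is the value that the authors' files give each peak. Its unit is not stated. It is used to rank peaks within a list, and raw values of the knock-in lists are also compared with each other and with fixed bounds. Whether both knock-in lists share 1 scale is not stated. The median of the highest score in a domain was 816 in replicate 1 and 769 in replicate 2, against 75.0 and 86.9 at the other knock-in sites. The median domain lay at percentile 95.5 of the scores of replicate 1 and 96.4 of replicate 2. Scores piled up at 3100, and 245 domains (25.5%) reached this value in both libraries, against 18 of the other sites (0.192%). The domains were not all strong, however. Taking the lower of both libraries' scores, 157 domains stayed under 100, 375 lay from 100 to 1000 and 430 reached 1000. These class bounds were chosen after the scores had been seen. A single peak of at least 5000 bp stood in both libraries at 11.5% of the domains under 100 and at 82.6% of those of at least 1000. The median share of bases covered in both libraries was 55.7% in the lowest class and 91.2% in the highest. Of the 157 domains under 100, 72 (45.9%) had such a peak in 1 library alone and 67 (42.7%) in neither. Of the 430 from 1000 on, 59 (13.7%) had one in 1 library and 16 (3.72%) in neither. High-scoring domains were thus mostly long in both libraries, and low-scoring ones mostly in 1 library or in neither.

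**Figure D1:**
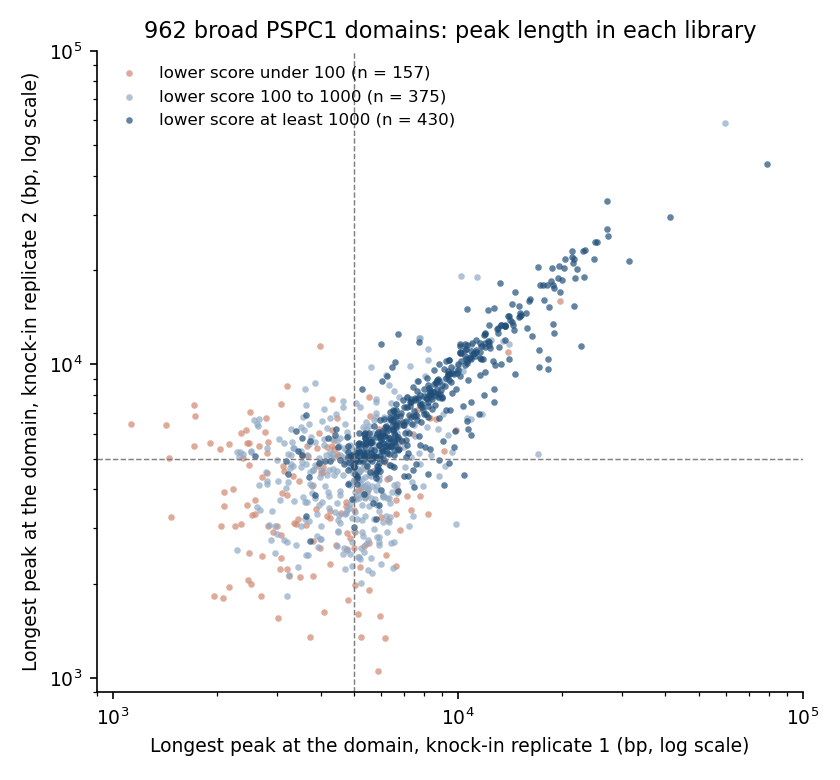
Longest peak in bp at each of the 962 domains in knock-in replicate 1 (horizontal, log scale) and replicate 2 (vertical, log scale), with 1 point per domain, colours for the lower of both scores and dashed lines at 5000 bp. The 430 domains with a score of at least 1000 lie close to the diagonal, and the 157 domains under 100 scatter widely below and beside the dashed lines.

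Regions just inside and just outside the width threshold were much alike in width. The narrowest domains, chr4:87676035-87681037, chr5:148534904-148539906 and chr9:114687663-114692665 (mm9, starts counted from 1), each measured 5003 bp. Their scores in replicates 1 and 2 were 561 and 730, 3100 and 3100, and 133 and 292. The widest sites left out were chr17:34725952-34730947 and chr8:96333433-96338428, both 4996 bp, and chr4:97441143-97446137 at 4995 bp. Their scores were 146 and 170, 307 and 273, and 451 and 292. All 6 regions held 1 peak of overexpressed PSPC1.

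The widest domain, chr11:96140209-96219117, was 78909 bp long. Replicate 1 covered it with 1 unbroken peak and replicate 2 with 3, the longest 43434 bp, and both libraries shared 98.3% of its bases. Its scores were 1982 and 3100. It held 14 peaks of overexpressed PSPC1, the most of any domain, with 5 of UTP6, 1 of CIRH1A and 1 of hnRNPU. The 14 peaks covered 17.1% of its bases, yet from the first to the last they spanned 92.3% of it. Where knock-in peaks covered nearly the whole stretch, overexpressed PSPC1 was recorded as a row of short separate peaks along it. Peaks of overexpressed PSPC1 were short throughout its list, with a median width of 326 bp. The median was 1500 bp in knock-in replicate 1 and 1419 bp in replicate 2. The shortness of the peaks is therefore not read as a trait of this domain.

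The next 3 domains also held rows of short peaks of overexpressed PSPC1, and only that on chromosome 6 was a single peak in each library. On chromosome 15, chr15:102777123-102852675 measured 75553 bp and was built from 3 peaks of replicate 1 and 6 of replicate 2, each library reaching a score of 3100. It held 10 peaks of overexpressed PSPC1, which covered 17.0% of its bases and spanned 81.9%. On chromosome 6, chr6:52146253-52206365 measured 60113 bp and was 1 peak in each library, of 59738 and 58633 bp. Its scores, 407 and 328, were the lowest of the 10 widest domains, although both libraries called it as a single block. It held 12 peaks of overexpressed PSPC1, covering 21.2% and spanning 87.4%, and 1 peak of UTP6. On chromosome 2, chr2:74504152-74539630 measured 35479 bp and was built from 3 peaks of replicate 1 and 2 of replicate 2, with scores of 3100 in both libraries. It held 7 peaks of overexpressed PSPC1 and 3 of UTP6.

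**Figure D2:**
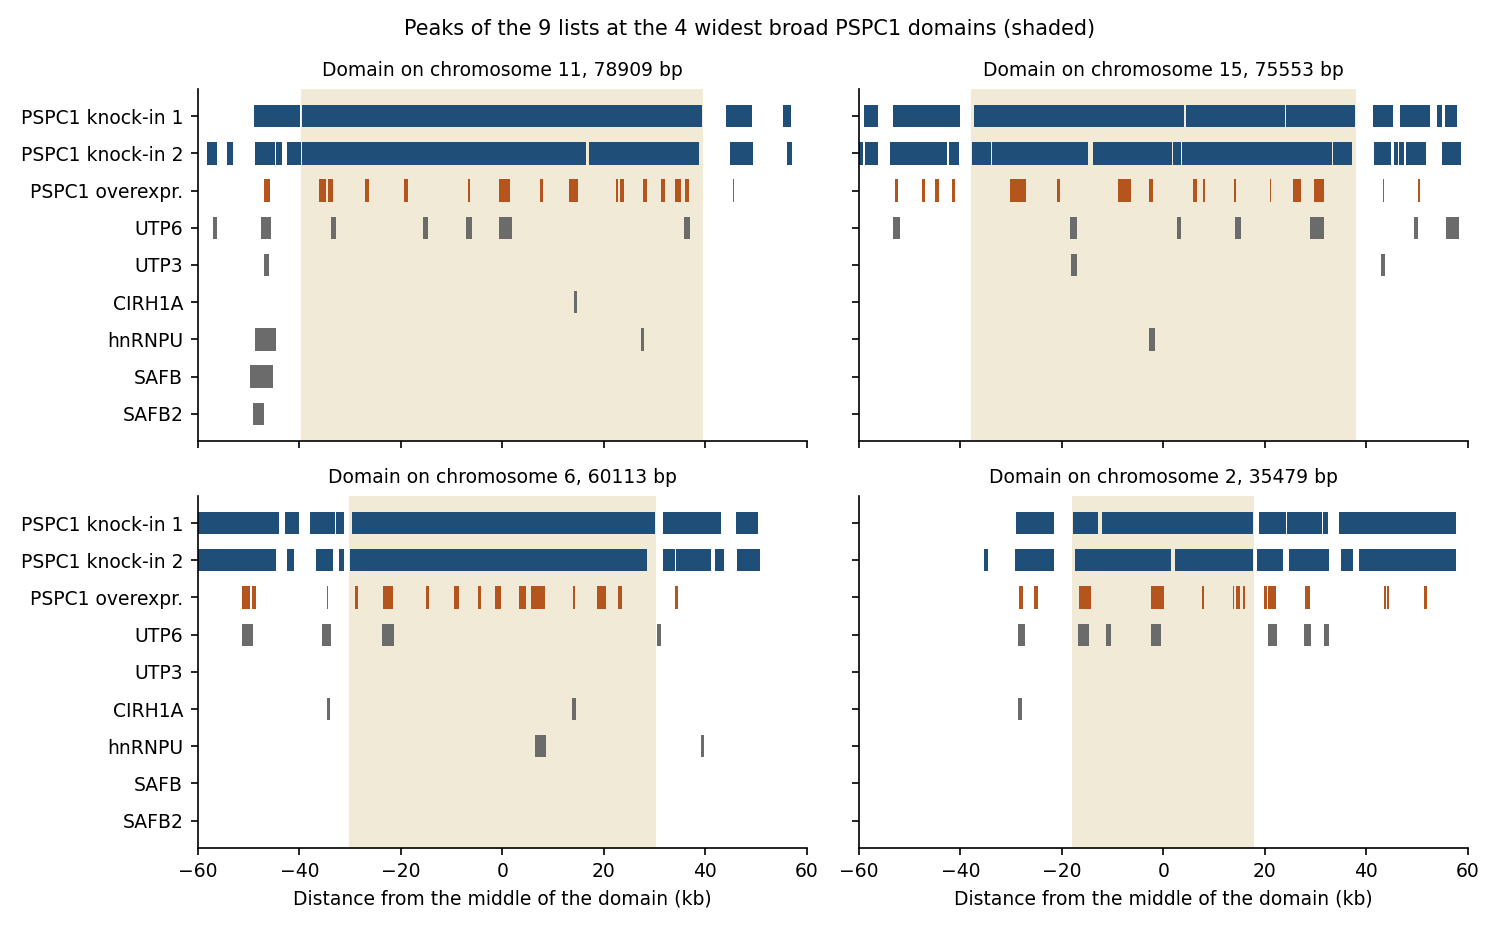
Peaks of the 9 lists at the 4 widest domains, 1 row per list, against the distance from the middle of the domain in kb. The shaded domains, of 78909, 75553, 60113 and 35479 bp, are filled by knock-in peaks in both libraries and hold 14, 10, 12 and 7 short peaks of overexpressed PSPC1, while UTP3, SAFB and SAFB2 have few peaks or none.

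Each of these 4 domains had another domain close by. Domains no more than 5000 bp apart were joined into runs, a grouping added after the data were seen. The 4 longest runs held the 4 widest domains. The run on chromosome 11, chr11:96130773-96229136, joined 3 domains over 98364 bp, of which 95.0% lay in domains. The run on chromosome 15, chr15:102760947-102852675, joined 2 over 91729 bp. On chromosome 6, chr6:52146253-52219913 joined 2 over 73661 bp, and on chromosome 2, chr2:74492606-74554592 joined 4 over 61987 bp. These runs held 17, 14, 13 and 12 peaks of overexpressed PSPC1. Chromosome 2 held a second long run only a few kb further on, chr2:74560013-74592954, with 2 domains, 5 peaks of overexpressed PSPC1 and 0 of UTP6. On chromosome 6, the domain chr6:52105125-52132345 of 27221 bp, the eighth widest, lay 13907 bp from its nearest domain.

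The chromosomes of the 4 widest domains, 11, 15, 6 and 2, are those that carry the Hoxb, Hoxc, Hoxa and Hoxd genes, with 10, 9, 11 and 9 genes in the RefSeq table of the assembly GRCm38. Hox genes encode homeodomain transcription factors that pattern the body axis and lie in compact clusters. Chromosome identity alone was compared, since the lists use mm9 coordinates and no mm9 annotation was used. Whether the domains lie at these clusters was not tested, and no domain is assigned to a gene.

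The other domains among the 10 widest measured 25547 to 33856 bp. They were chr1:78183215-78217070, chr2:105499092-105532293, chr1:122484181-122515781, chr11:118894991-118922057 and chr4:139372594-139398140, besides the domain on chromosome 6 named above. They held 3 to 7 peaks of overexpressed PSPC1 and 1 to 3 of UTP6. All 10 of the widest domains thus had peaks of both lists, and 9 of the 10 reached a score above 1000 in both libraries. SAFB had a peak in 1 of the 10, the domain chr1:122484181-122515781, and SAFB2 in 0.

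Overexpressed PSPC1 was the list found at the most domains. At least 1 bp was shared with one of its peaks by 808 of 962 domains, or 84.0% (Wilson 95% interval 81.5 to 86.2%), against 58.8% (57.8 to 59.8%) of the other knock-in sites. The share over all knock-in sites was 61.1%. Among domains of at least 10000 bp it was 94.8% (202 of 213). The intervals cover counting error only, since peaks of 1 library are not replicates, and the read depth behind the lists is unknown.

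UTP6, whose list is the longest, shared bases with 77.8% of the domains (75.0 to 80.3%), against 69.9% of the other sites and 70.6% of all knock-in sites. UTP3 was found at 32.0% of the domains (29.1 to 35.0%), against 37.0% of the other sites and 36.6% of all. CIRH1A was found at 20.5% (18.0 to 23.1%), against 26.1% and 25.6%. So with the full lists, among the 3 ribosome biogenesis factors, UTP6 lay above the background at the domains, and UTP3 and CIRH1A lay below it.

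The nuclear matrix proteins were each found at a smaller share of the domains than of the other sites. hnRNPU had a peak at 23.0% of the domains (20.4 to 25.7%), against 26.5% of the other sites and 26.2% of all knock-in sites. SAFB had one at 7.48% (5.99 to 9.32%), against 8.95% and 8.81%. SAFB2 had one at 4.57% (3.42 to 6.08%), against 6.27% and 6.11%. The interval of SAFB at the domains includes the share at all knock-in sites, so these differ by less than counting error, and the SAFB2 interval ends just short of it.

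The lists differ in length, and the strongest peaks gave another order. Each list was held to its highest scoring peaks, as many as the shortest list, SAFB2, holds. Overexpressed PSPC1 was then found at 57.6% of the domains (54.4 to 60.7%) and 31.2% of the other sites (30.3 to 32.1%). UTP6 fell to 6.96% of the domains (5.52 to 8.75%), against 21.2% of the other sites (20.3 to 22.0%), so its direction turned. UTP3 was found at 10.5% against 20.0%, CIRH1A at 12.7% against 19.6%, hnRNPU at 14.8% against 20.4% and SAFB at 2.18% against 4.58%. Among the strongest peaks, overexpressed PSPC1 was thus the only list of the 7 with a larger share at the domains than at the other sites. Within score classes its larger share was not seen at 100 and above: 26.1% (19.9 to 33.5%) against 21.8% under 100, 46.1% (41.2 to 51.2%) against 51.4% (49.5 to 53.3%) from 100 to 1000, and 79.1% against 82.4% from 1000 on. UTP6 was lower at the domains in each class, with 8.92% against 20.3%, 9.87% against 23.7% and 3.72% against 17.0%. Of the 748 domains with UTP6, 67 met one of its strongest peaks.

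A wide site offers more bases to meet a peak. Within the middle 1000 bp of each site, the order of domains and other sites turned for overexpressed PSPC1 and for UTP6. Overexpressed PSPC1 had a peak there in 39.8% of the domains (36.8 to 42.9%) and in 53.2% of the other sites. For UTP6 the shares were 44.6% (41.5 to 47.8%) and 67.8%. The other lists were also less frequent at the middle of the domains, with 17.2% against 35.8% for UTP3, 10.6% against 25.0% for CIRH1A, 13.1% against 25.7% for hnRNPU, 3.22% against 8.41% for SAFB and 1.98% against 5.81% for SAFB2. The excess of overexpressed PSPC1 and UTP6 at whole domains was therefore not present in this fixed length, which is a larger part of a narrow site than of a domain.

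The share of bases covered was lower in the domains for all 7 lists. Peaks of overexpressed PSPC1 covered 14.3% of the bases of the domains and 15.4% of those of the other sites. UTP6 covered 22.2% and 43.6%. UTP3 covered 7.26% and 19.4%, CIRH1A 3.86% and 11.8%, and hnRNPU 3.90% and 12.5%. SAFB covered 2.09% and 5.48%, and SAFB2 1.02% and 3.41%. The ratio of the covered shares, domains over other sites, was 0.929 for overexpressed PSPC1 and 0.299 to 0.509 for the 6 other proteins. These pooled values mix sites of very different knock-in score. At a lower score under 100, overexpressed PSPC1 covered 8.45% of the bases of the domains and 12.3% of those of the other sites. From 100 to 1000 it covered 12.2% and 19.9%, and from 1000 on 16.8% and 27.6%. In each class it thus covered clearly less of the domains, with ratios of 0.687, 0.613 and 0.609. The ratios of UTP6 were 0.661, 0.704 and 0.445, close to those of overexpressed PSPC1 below a score of 1000. Under 100, the ratios of CIRH1A, UTP3 and SAFB2 were 0.676, 0.607 and 0.596, and those of SAFB and hnRNPU 0.290 and 0.259. From 100 to 1000, SAFB had 0.738, UTP3 0.563, CIRH1A 0.535, SAFB2 0.469 and hnRNPU 0.391. From 1000 on, the 6 other proteins lay from 0.288 to 0.456. The pooled contrast was thus smaller for several lists below a score of 1000.

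**Figure D3:**
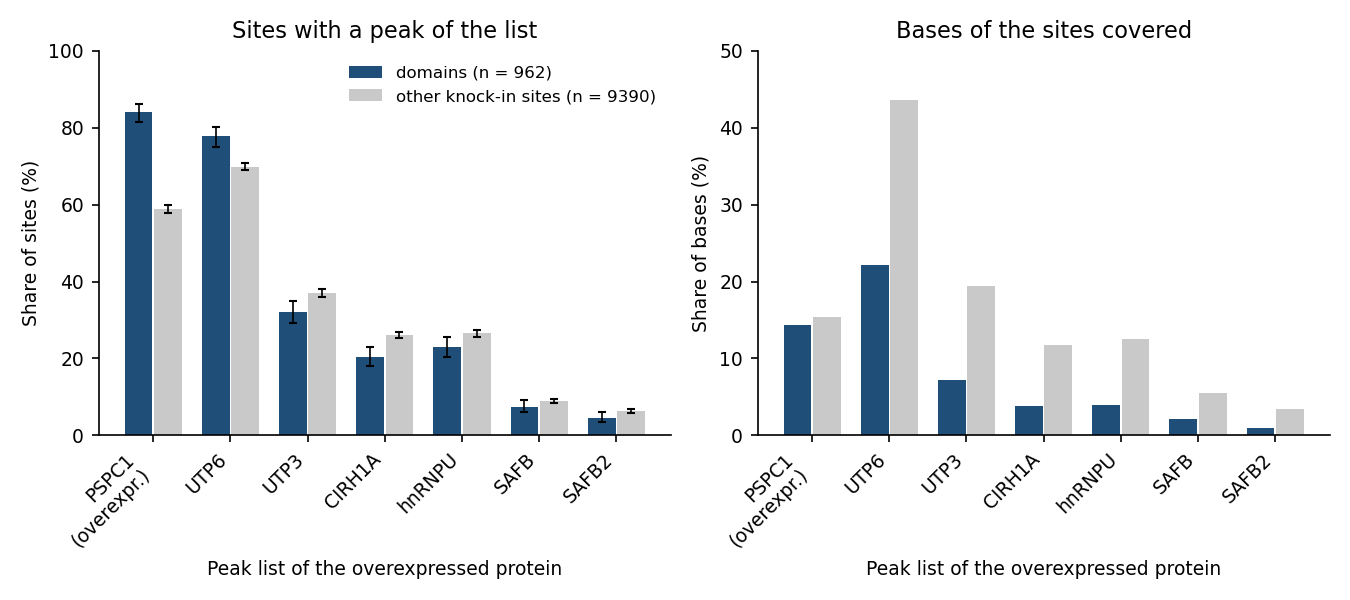
Share of sites in % with a peak of each overexpressed protein (left, bars with Wilson 95% intervals) and share of their bases in % covered by those peaks (right), for the 962 domains and the 9390 other knock-in sites. Overexpressed PSPC1 is found at 84.0% of the domains against 58.8% of the other sites, with pooled covered shares of 14.3 and 15.4%. The pooled covered share of every other list is 0.299 to 0.509 of that at the other sites. Within score classes below 1000, several lists lie closer to overexpressed PSPC1.

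Several peaks of overexpressed PSPC1 in a domain were common. At least 2 of them lay in 400 domains (41.6%), against 11.3% of the other sites, and at least 4 in 46. At least 2 peaks of UTP6 lay in 158 domains (16.4%), against 2.16% of the other sites. For UTP3 it was 15 domains (1.56%) against 0.405%, and for CIRH1A 11 (1.14%) against 0.362%. For hnRNPU it was 8 (0.832%) against 0.586%, and for SAFB and SAFB2 0, against 0.0213% and 0.0106%. Per 10 kb, however, the domains held 1.76 peaks of overexpressed PSPC1 and the other sites 2.99, and for UTP6 1.12 and 3.02. Over the 962 domains, the number of peaks of overexpressed PSPC1 followed the width with a rho of 0.353, and that of UTP6 with a rho of 0.0708. Domains of at least 10000 bp held a mean of 2.57 peaks of overexpressed PSPC1, against 1.21 in narrower domains, and of UTP6 1.17 against 0.90. At least 2 UTP6 peaks lay in 65 of those 213 (30.5%) and in 93 of the 749 narrower domains (12.4%). Both lists thus had more peaks in longer domains, and overexpressed PSPC1 the larger increase.

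Within a domain, peaks of most other lists were fewer at the ends. With each domain divided into 5 equal sections, both outer sections hold 40% of its bases and the middle section 20%. For overexpressed PSPC1, 23.3% of the 1455 peaks had their midpoint in both outer sections together and 24.9% in the middle section alone. For UTP6 the shares were 28.1% and 24.4% of 919 midpoints, and for hnRNPU 18.7% and 30.4% of 230. UTP3 had 18.9% and CIRH1A 22.0% in the outer sections. SAFB2 had 32.6% of 43 midpoints there and SAFB 40.0% of 65, which for SAFB is the share of an even spread. The middle section held no more overexpressed PSPC1 than the sections beside it, with 25.2, 24.9 and 26.7%, and the peaks of overexpressed PSPC1 were spread along the inner part of the domains.

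Overexpressed PSPC1 and UTP6 were often found at the same domains, but each alone was already found at most of them, 84.0% and 77.8%. At the other sites the single shares were 58.8% and 69.9%. Whether the lists met more often than these single shares would give was not tested. Both overexpressed PSPC1 and UTP6 were found at 676 domains (70.3%), against 51.3% of the other sites. Overexpressed PSPC1 without UTP6 was found at 132 (13.7%), against 7.51%, and UTP6 without overexpressed PSPC1 at 72 (7.48%), against 18.6%. Neither was found at 82 (8.52%), against 22.6%. A peak of 1 of the 7 lists alone was met by 143 domains (14.9%) and of 2 lists by 312 (32.4%). Peaks of 3 lists were met by 221 (23.0%) and of 4 by 159 (16.5%). The matching shares of the other sites are not given here. The median domain and the median other site each met 2 of the 7 lists. None of the 7 was met by 65 domains (6.76%), against 1911 other sites (20.4%).

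The 65 domains without any other list had a median width of 6518 bp and a median lower score of 159. Of these, 16 lay on chromosome 1, 10 on chromosome 8 and 7 on chromosome 13. Of all 962 domains, these chromosomes held 186 (19.3%), 113 (11.7%) and 35 (3.64%). The 7 on chromosome 13 lay close together, between positions 12857703 and 13062284. The widest were chr1:90132993-90147347 at 14355 bp, chr18:38726170-38740293 at 14124 bp, chr14:63881008-63891287 at 10280 bp, chr1:63304977-63315045 at 10069 bp and chr1:135781825-135791757 at 9933 bp. Scores of chr14:63881008-63891287 were 1019 and 1245, and those of the other 4 lay between 123 and 599. Each was made of 1 or 2 peaks of replicate 1 and 3 or 4 of replicate 2.

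All 7 lists were met by 4 domains (0.416%), and the share of the other sites that met all 7 is not given here. The domain chr17:39979445-39986238, 6794 bp, was covered over 87.3 to 93.1% of its bases by every one of the 7 lists, and its overexpressed PSPC1 score of 3100 was the highest of any domain. It lay 2768210 bp from the nearest other knock-in site. Peaks of all 9 lists, which differ in protein, parental line and fixation, thus lay on it, and whether untagged cells give the same signal there was not tested. The domain chr7:3217186-3222904 was covered over 27.1 to 97.4%, and chr14:6167147-6174273 over 30.4 to 80.5%. The last, chr1:74330221-74336406, had scores of 30 and 32, shared 39.3% of its bases between the libraries and was covered over 6.03 to 34.1%. Next after chr17:39979445-39986238 by overexpressed PSPC1 score were chr8:49926849-49932828, with 2274, and chr12:9429778-9436270, with 1906. The latter met no list but overexpressed PSPC1, which covered 37.5% of it.

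The higher knock-in scores of the domains moved with the share that met overexpressed PSPC1. Under a lower score of 100, the share was 65.0% of the domains (57.2 to 72.0%) and 49.9% of the other sites (48.7 to 51.1%). From 100 to 1000 it was 79.2% (74.8 to 83.0%) and 78.9% (77.3 to 80.4%). From 1000 on it was 95.1% (92.6 to 96.8%) of 430 domains and 97.3% (93.7 to 98.8%) of 182 other sites. At scores of 100 and above, domains and narrower sites thus met overexpressed PSPC1 equally often within counting error, and the difference remained in the lowest class.

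UTP6 followed the score less. Its share was 77.1% of the domains under 100, 81.1% from 100 to 1000 and 75.1% from 1000 on, against 66.1, 78.7 and 81.9% of the other sites. CIRH1A was found less often at the higher scores, with 29.9% (23.3 to 37.5%), 26.1% (21.9 to 30.8%) and 12.1% (9.34 to 15.5%) of the domains in that order. At the other sites it was 25.1, 29.3 and 19.2%. hnRNPU was found at 14.0% (9.44 to 20.3%), 24.5% and 24.9% of the domains, and at 23.3% (22.3 to 24.3%), 34.3% and 34.1% of the other sites. In each class hnRNPU was thus the less frequent at the domains, with intervals that did not overlap below 1000.

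**Figure D4:**
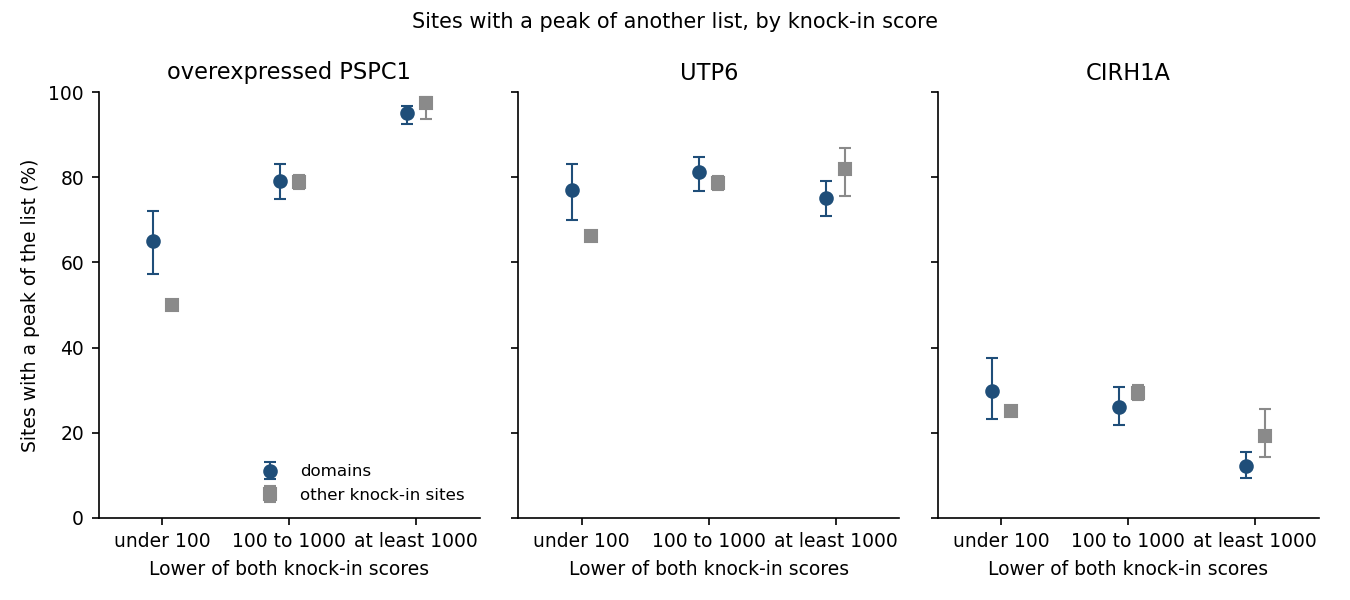
Share in % of domains (circles) and other knock-in sites (squares) with a peak of overexpressed PSPC1, UTP6 or CIRH1A, by the lower of both knock-in scores, with Wilson 95% intervals. The overexpressed PSPC1 share rises with score in both kinds of site, 65.0, 79.2 and 95.1% of the domains, and the CIRH1A share of the domains is lowest, 12.1%, in the highest class.

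Domains were unevenly spread over the chromosomes. Chromosome 1 held the most, 186 (19.3%, 17.0 to 22.0%), but it also held 18.0% of the other knock-in sites. Of the single peaks of at least 5000 bp in replicates 1 and 2, 15.5% and 16.7% lay on chromosome 1. Within score classes chromosome 1 held more of the domains than of the other sites: 27.4% (21.0 to 34.8%) against 19.4% (18.5 to 20.4%) under 100, and 27.2% (22.9 to 31.9%) against 15.2% (13.8 to 16.6%) from 100 to 1000. From 1000 on the shares were 9.53% (7.11 to 12.7%) and 6.59% (3.81 to 11.2%), with intervals that overlap. Over all scores, chromosome 1 held 13.9% of the domains with a single peak of at least 5000 bp in both libraries. It held 14.1% of the domains of at least 10000 bp. Both values lie below the 18.0% of all other sites, but 70.4% of those sites had a lower score under 100. Of the 482 domains with such a peak in both libraries, 355 reached 1000. The comparison is thus not between sites of like score, and no direction is read from it. Chromosome 8 held 113, or 11.7% (9.86 to 13.9%), against 5.53% of the other sites, and 17.9% of its knock-in sites were domains, against 9.29% over all chromosomes. Chromosome 16 held 10 domains (1.04%), against 2.74% of the other sites. Assembly pieces not placed on a chromosome added 6 domains of chromosome 1 and 4 of chromosome 8.

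The domains of chromosomes 1 and 8 had low scores. Their median lower scores were 237 and 115, against 694 over all domains. Chromosome 17 was also low, with 349. The highest median, 3100, was that of chromosome 13, where the median width was 9207 bp. Of the 157 domains under a score of 100, 49 (31.2%) lay on chromosome 8 and 43 (27.4%) on chromosome 1. Of the 430 domains from 1000 on, 22 (5.12%, 3.40 to 7.62%) lay on chromosome 8 and 41 (9.53%) on chromosome 1. With the domains under 100 left out, chromosome 8 held 7.95% of the domains. Set against other sites of like score, the share on chromosome 8 was higher among the domains in every class. It was 31.2% (24.5 to 38.8%) against 6.08% under 100, 11.2% (8.39 to 14.8%) against 4.31% (3.60 to 5.16%) from 100 to 1000, and 5.12% against 2.75% (1.18 to 6.27%) from 1000 on, where the intervals overlap. The difference was thus widest among low-scoring domains. A higher share was seen in each library alone: of single peaks of at least 5000 bp, 10.5% of replicate 1 and 11.9% of replicate 2 lay on chromosome 8, against 7.97% and 7.19% of all their peaks. Wide peaks of several other lists also had a higher share there than all their peaks. For UTP6 it was 15.7% of 70 against 6.57%, for SAFB2 10.8% of 93 against 6.27%, and for SAFB 6.76% of 414 against 5.64%. UTP3 had 17.2% of 29 against 8.25%, and CIRH1A 30.8% of 13 against 9.03%. hnRNPU had 0 of 18, and overexpressed PSPC1 1 of 2. A higher share of wide peaks on chromosome 8 was thus also recorded in other lists, but from few peaks. There were 11 for UTP6, 28 for SAFB, 10 for SAFB2, 5 for UTP3 and 4 for CIRH1A. Counting intervals are not given for these shares, so whether each exceeds counting error is not known.

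The chromosomes also differed in the other lists. Overexpressed PSPC1 was found at 74.7% of the domains of chromosome 1 and UTP6 at 85.5%, against 84.0% and 77.8% over all domains. On chromosome X, 8 of 11 domains met overexpressed PSPC1 and 1 met UTP6.

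**Figure D5:**
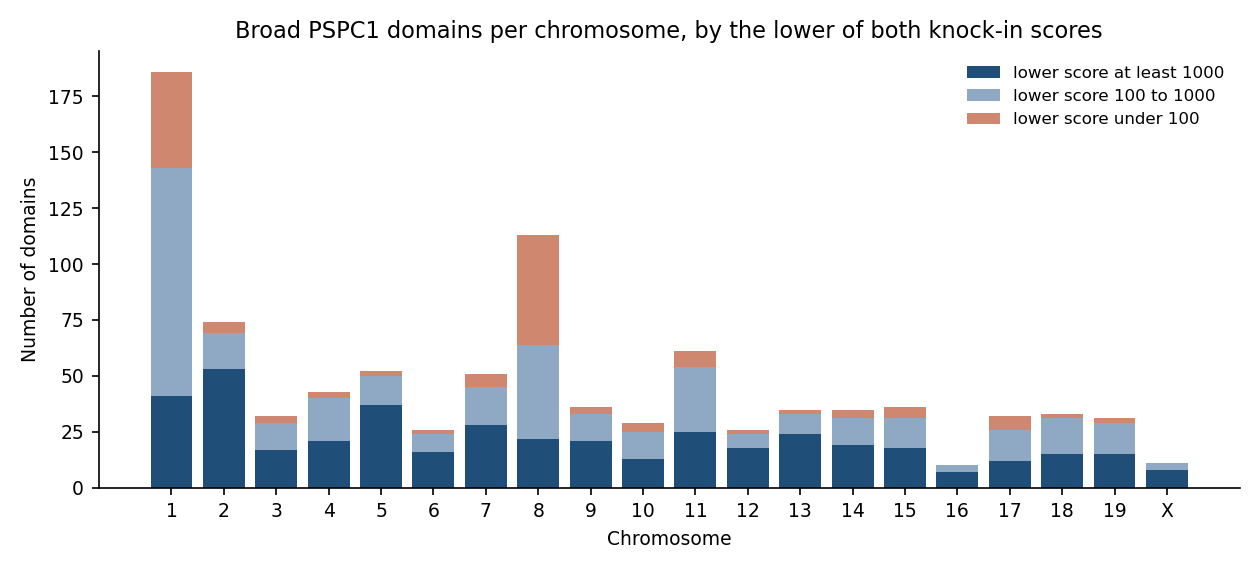
Number of domains on each of chromosomes 1 to 19 and X, with each bar divided by the lower of both knock-in scores. Chromosomes 1 and 8 hold 186 and 113 domains, of which 43 and 49 score under 100, and on chromosome 2 53 of 74 domains reach 1000.

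Domains lay near other knock-in sites. The median gap from a domain to the nearest other knock-in site was 6307 bp, against 27898 bp from the other sites. Another knock-in site lay within 10000 bp of 58.5% of the domains and 32.2% of the other sites. Another domain lay within 10000 bp of 207 domains (21.5%), against 6.38% of the other sites, and the median gap between neighbouring domains was 132850 bp. With a gap of at most 5000 bp, 167 domains (17.4%) fell into 78 runs of 2 to 4 domains. The closest pair, chr11:95003184-95008257 and chr11:95008261-95013768, lay 3 bp apart. The first met 2 peaks of UTP6 and 0 of overexpressed PSPC1, and the second 1 of overexpressed PSPC1 and 0 of UTP6.

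In windows of 1 Mb, 33 windows held at least 5 domains and together held 227 domains (23.6%). The highest number was 11, in 3 windows. The window from 74000001 of chromosome 1 held 58 knock-in sites, and its 11 domains had a median lower score of 3100. The window from 38000001 of chromosome 18 held 46 sites, and its domains had a median of 165. The window from 87000001 of chromosome 8 held only 18 sites, of which 11 were domains, with a median of 161 and a range from 40 to 3100. Part of these domains formed a run of 3, chr8:87291169-87340861, over 49693 bp, with 4 peaks each of overexpressed PSPC1 and UTP6 and 3 of UTP3. Overexpressed PSPC1 was found at 8, 10 and 8 of the 11 domains of these windows, and UTP6 at 9, 10 and 7.

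Beyond their own borders, the domains had peaks of several other lists nearby. The nearest peak of overexpressed PSPC1 outside the domain lay at a median of 12314 bp, against 20324 bp from the other sites, and the nearest of UTP6 at 8087 bp, against 10581 bp. UTP3 lay at 27944 bp, against 35098 bp, and CIRH1A at 42956 bp, against 50494 bp. For hnRNPU the medians were 61210 and 58144 bp, for SAFB 99099 and 91158 bp, and for SAFB2 147572 and 143776 bp. A peak of hnRNPU lay within 10000 bp of 12.6% of the domains and 11.4% of the other sites. By the median gap, peaks of overexpressed PSPC1, UTP6, UTP3 and CIRH1A were thus nearer to the domains than to the other sites, and those of hnRNPU, SAFB and SAFB2 were not.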

How the data were processed

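Each deposited list names the position of every peak by chromosome, start and end, and adds a name and a score. The score was set by the authors' peak caller, and its unit is not stated. The peak names carry the name MACS. Per the submitters' processing notes, the build is mm9 and CASAVA, Bowtie2 and TopHat were used, with no role or version given. The control and the peak threshold are not given in the sources used here. Deposited scores began at 30.00 for knock-in PSPC1 and at about 50 for the overexpressed proteins. One list was deposited per library, and read depth is unknown.

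Samples were grouped by title. Peaks sharing at least 1 bp counted as overlapping. Starts were taken as counted from 0, as in the BED format, and are printed counted from 1. Shares carry Wilson 95% intervals. The overlap, merging and coverage steps were tested on simulated lists with known answers. No test was run, because every overexpressed protein had 1 library and both knock-in libraries chose the domains. The tools were scipy 1.17.1, pandas 2.3.3, matplotlib 3.10.9 and numpy 2.4.6 under Python 3.11.15.

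The domains, the lists of regions and the comparisons were chosen with earlier results of these data known. Regions were named by rule: the 10 widest domains, the 5 widest with none of the 7 other lists, the widest with all 7, 3 on each side of the width threshold, the closest pair, the 3 with the highest overexpressed PSPC1 score and the 3 fullest windows of 1 Mb. Score classes, runs, chromosome 8, and the alternatives of a lower score of at least 100 and of a single peak of at least 5000 bp in both libraries were added after seeing the data. Lists of paraspeckle, pluripotency, Hox, histone, ribosomal protein and ribosome biogenesis genes had been drawn up but were not counted, since no annotation or sequence of mm9 was used.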

Additional observations from a re-analysis of the deposited data

How the results depend on the processing

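The count of 962 domains follows the width chosen: it was 1617 at 4000 bp, 397 at 7500 bp, 213 at 10000 bp, and 482 where a single peak of at least 5000 bp was required in both libraries. It lay between 648 and 695 with either knock-in library left out, where single peaks of the other library were used. With either left out, the share with overexpressed PSPC1 was 85.6 to 87.2%, with UTP6 73.1 to 75.5%, with UTP3 28.6 to 29.5%, with CIRH1A 17.1 to 20.5%, and the share on chromosome 1 was 15.5 to 16.7%. At a width of 10000 bp, overexpressed PSPC1 was found at 94.8%, UTP3 at 28.2% and CIRH1A at 17.4%, chromosome 1 held 14.1%, and the covered bases were 13.0% for UTP6, 3.41% for UTP3, 1.78% for CIRH1A, 1.84% for hnRNPU, 0.841% for SAFB and 0.363% for SAFB2. The median gap to the nearest other domain was then 981984 bp and to the nearest other knock-in site 3845 bp. Without chromosome 1, the shares were 86.2% for overexpressed PSPC1, 27.4% for UTP3 and 17.1% for CIRH1A, and the median gap to the nearest other domain was 162358 bp. Requiring a single peak of at least 5000 bp in both libraries gave 92.7% for overexpressed PSPC1, 28.2% for UTP3, 13.9% of domains on chromosome 1 and 9.75% on chromosome 8. A lower score of at least 100 gave 87.7% for overexpressed PSPC1. With each list held to its highest scoring peaks, as many as the shortest list has, the shares were 57.6% for overexpressed PSPC1, 6.96% for UTP6, 10.5% for UTP3, 12.7% for CIRH1A, 14.8% for hnRNPU and 2.18% for SAFB, and UTP6 then lay below its share at the other knock-in sites. Within the middle 1000 bp, the shares were 39.8, 44.6, 17.2, 10.6, 13.1, 3.22 and 1.98% in the order overexpressed PSPC1, UTP6, UTP3, CIRH1A, hnRNPU, SAFB and SAFB2. The cause of these shifts was not tested. Of 94 values under an alternative, 49 stayed within the counting interval of the reported share, the interval of the reported median, or 1.5 times the reported count or covered share. No paired analysis was possible because no group other than knock-in PSPC1 has more than 1 list. Depth is unknown, so list length limits every share.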
